A study of Mus musculus with 96 samples.

Results

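The acute phase proteins described here were 10 genes: Saa1, Saa2 and Saa3, the serum amyloid A proteins, Orm1 and Orm2, which encode alpha-1-acid glycoproteins, Hp, which encodes haptoglobin, Lcn2, which encodes lipocalin 2, Hamp, which encodes hepcidin, Il1rn, which encodes the interleukin-1 receptor antagonist, and Apcs, which encodes serum amyloid P. They were taken by gene symbol from the platform annotation of the array, where each had 1 transcript cluster, among 19505 genes with a symbol and 22206 transcript clusters in all. Levels were measured on 96 arrays, 24 from each of liver, gonadal visceral fat, pancreas and striatum. The mice were of the C57BL/6JOlaHsd strain on standard chow and received 1 subcutaneous injection a day for 28 days of risperidone at 1 mg/kg, of olanzapine at 3.5 mg/kg, or of vehicle, the saline with dimethylsulfoxide and Tween 20 in which both drugs were dissolved. Each group had 8 mice, 4 males and 4 females, killed 1 h after the last injection, and the same mice gave the 4 tissues. The mice were bought at 6 weeks of age and the labels give no age at the end. Both drugs were compared with the same 8 vehicle mice, so the 2 comparisons are not independent.

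The acute phase response is the change in the set of proteins secreted by the liver that follows infection, injury or stress. Interleukin-1 and interleukin-6 released by macrophages reach hepatocytes, where NF-kB, STAT3 and C/EBP factors raise the transcription of genes such as the serum amyloid A genes, while hepcidin answers both to interleukin-6 and to iron through bone morphogenetic proteins. Fat cells also make several of these proteins, among them alpha-1-acid glycoprotein, haptoglobin and serum amyloid A3.

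RefSeq promoters of build GRCm38.p6 were at hand for 8 of the 10 genes, not for Orm1 and Hp. The 250 bases upstream of the start are shown for the 2 serum amyloid A genes that moved together most closely, for Lcn2, the most variable gene in liver, and for Hamp, none of whose pairs with the others passed the test in liver. They lie at chr7:46742981-46743230 on the minus strand for Saa1, chr7:46751583-46751832 on the plus strand for Saa2, chr2:32387740-32387989 on the minus strand for Lcn2 and chr7:30944030-30944279 on the minus strand for Hamp. Capitals mark matches on either strand to a C/EBP motif, TTNNGNAA, or to a STAT motif, TTCNNNGAA.
Saa1: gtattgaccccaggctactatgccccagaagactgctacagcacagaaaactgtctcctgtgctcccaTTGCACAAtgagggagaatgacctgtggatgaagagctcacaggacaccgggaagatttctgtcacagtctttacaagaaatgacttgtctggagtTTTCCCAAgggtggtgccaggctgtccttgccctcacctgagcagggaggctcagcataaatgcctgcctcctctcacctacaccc
Saa2: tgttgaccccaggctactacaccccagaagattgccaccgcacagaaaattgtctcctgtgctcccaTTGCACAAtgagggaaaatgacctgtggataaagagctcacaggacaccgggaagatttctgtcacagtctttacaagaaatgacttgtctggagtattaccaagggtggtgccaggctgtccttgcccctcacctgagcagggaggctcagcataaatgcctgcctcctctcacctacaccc
Lcn2: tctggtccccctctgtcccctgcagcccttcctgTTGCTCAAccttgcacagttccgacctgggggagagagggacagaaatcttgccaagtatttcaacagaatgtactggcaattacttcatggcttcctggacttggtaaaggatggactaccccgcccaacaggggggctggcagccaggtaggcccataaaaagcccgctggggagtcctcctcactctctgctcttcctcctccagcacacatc
Hamp: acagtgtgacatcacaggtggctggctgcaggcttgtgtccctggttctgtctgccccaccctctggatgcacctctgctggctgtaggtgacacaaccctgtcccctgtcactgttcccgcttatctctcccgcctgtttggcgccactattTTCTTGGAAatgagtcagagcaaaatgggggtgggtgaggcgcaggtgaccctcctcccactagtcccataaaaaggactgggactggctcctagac

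The Saa1 and Saa2 promoters were identical at 94.8% of aligned positions, against 52.2% for Saa1 and Saa3. Both held a C/EBP match, at -182 to -175 from the start in Saa1 and -183 to -176 in Saa2. Saa1 had a further match at -86 to -79 that these letters did not give in Saa2. The C/EBP motif was found in 5 of the 8 promoters (Saa1, Saa2, Saa3, Orm2 and Lcn2, counting the first listed start of each gene), and in 36.9% of all 27025 promoters of this length. The STAT motif was found in Hamp, at -97 to -89, and in Apcs, and in 7.18% of all promoters. No match to the NF-kB motif was found in the 8 (7.01% of all promoters), and TATAAA was found in Orm2 alone (13.0% of all promoters). A match is a string of letters and was not tested for binding.

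Values are log2 signals after robust multi-array averaging, and a difference of 1 is a 2-fold difference. Array medians ranged from 6.12 to 6.29 in liver, from 7.41 to 7.65 in fat, from 6.69 to 6.90 in pancreas and from 7.66 to 7.74 in striatum. Each tissue showed its own markers: the mean over 10 hepatocyte genes was 18.26 to 18.55 in liver, over 9 fat cell genes 11.82 to 15.72 in fat, over 9 acinar cell genes 11.42 to 17.64 in pancreas and over 7 genes of striatal neurons 12.34 to 16.39 in striatum. The highest value on a liver array was 19.69 to 19.93, so differences of genes near that level, above all Hp, are compressed. Some arrays stood apart by markers of a neighbouring tissue. In fat, 4 arrays from males (risperidone M4, M5 and M23, olanzapine M9) had a mean over the list of gonadal tract genes of 10.55 to 13.49, against 6.59 to 9.68 in the other 20. In pancreas, 3 arrays (risperidone F4, vehicle M3 and M19) had a mean over the hepatocyte genes of 9.54 to 12.45, against 6.55 to 8.82 in the other 21. Results for several of the 10 genes are given with and without them. Mice carried numbers of up to 9 or of 19 and above, and the labels do not say what the ranges mean. The lower range held 5 risperidone, 3 olanzapine and 4 vehicle mice.

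In liver, none of the 10 genes passed the test for either drug against vehicle. The comparison was fitted with limma over all 19505 genes with sex as a term, and genes whose adjusted p was below 0.05 are written as called. Risperidone minus vehicle had 0 of 10 called (0.0410% of all genes) and 0 of 10 at an unadjusted p under 0.05 (5.40% of all genes). Olanzapine minus vehicle had 0 of 10 called (0.0205% of all genes) and again 0 of 10 at an unadjusted p under 0.05 (6.56% of all genes). The median difference over the 10 genes was 0.21 under risperidone and 0.30 under olanzapine, against 0.00 and 0.01 over all genes, and 8 of the 10 estimates were above 0 under each drug. The intervals were wide, since most of these genes varied widely among mice of the same group. The standard deviation left after treatment and sex was 3.04 for Lcn2, the highest of all 19505 genes. Saa2 ranked 3 (2.77), Saa3 ranked 4 (2.47), Saa1 ranked 5 (2.40) and Orm2 ranked 8 (2.10), while the median gene had 0.337. Il1rn ranked 26, Apcs 68, Hamp 120 and Orm1 267, and Hp, with 0.308 at rank 12309, varied less than the median gene.

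The serum amyloid A genes encode apolipoproteins that replace others on high density lipoprotein during the response. Liver Saa1 was 14.22, 16.20 and 17.50 (lowest, median, highest) under risperidone, 13.11, 15.59 and 18.03 under olanzapine and 8.09, 15.75 and 18.34 under vehicle. The 3 groups overlapped over most of their ranges, and the low end came from vehicle females alone. Saa1 was 16.73, 17.50, 16.85 and 14.22 in the 4 risperidone females, 13.11, 17.81, 15.20 and 13.50 in the olanzapine females, and 18.34, 10.64, 11.55 and 8.09 in the vehicle females. The vehicle males, at 17.77, 17.29, 15.52 and 15.97, had no such low values. The estimated difference was 1.52 (standard error 1.02, 95% interval -0.57 to 3.62, adjusted p = 0.963 by limma) for risperidone and 1.23 (interval -0.86 to 3.33) for olanzapine.

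Saa2 followed Saa1. Its lowest, median and highest values were 14.42, 17.66 and 18.88 under risperidone, 12.64, 16.67 and 19.16 under olanzapine and 8.70, 17.03 and 19.27 under vehicle. The difference from vehicle was 1.84 (interval -0.58 to 4.26) for risperidone and 1.23 (interval -1.19 to 3.64) for olanzapine. Saa1 and Saa2 are close copies, so their probes may not separate them fully. Saa3, which fat cells and macrophages also make, had 10.81, 11.93 and 15.70 under risperidone, 9.66, 11.07 and 16.71 under olanzapine and 8.53, 11.26 and 16.19 under vehicle, and its medians lay within 1 log2 unit of each other.

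Lipocalin 2 binds bacterial siderophores and so withholds iron. Liver Lcn2 spanned 10.45, 16.15 and 19.26 under risperidone, 12.22, 14.41 and 19.65 under olanzapine and 11.46, 13.28 and 19.81 under vehicle. All 3 groups held mice above 19 and mice below 13. The difference from vehicle was 1.15 (interval -1.50 to 3.80) for risperidone and 0.48 (interval -2.17 to 3.13) for olanzapine, so changes of several fold in either direction lie inside the interval. The alpha-1-acid glycoproteins bind drugs and lipids in plasma. Orm2 was 10.28, 13.47 and 16.52 under risperidone, 12.47, 14.43 and 17.85 under olanzapine and 11.18, 13.16 and 18.61 under vehicle, with differences from vehicle of 0.02 (interval -1.81 to 1.85) and 0.84 (interval -0.997 to 2.67). Orm1 moved over a narrower range near the top of the scale, with medians of 17.91, 17.70 and 17.64 under risperidone, olanzapine and vehicle, and Orm1, Orm2 and Orm3 are near copies that share sequence. Haptoglobin captures free haemoglobin. Hp was 19.32 to 19.83 under risperidone, 18.62 to 19.86 under olanzapine and 19.01 to 19.87 under vehicle, close to the highest value of the arrays.

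Hepcidin blocks iron export from cells by acting on ferroportin. Hamp had 15.11, 17.13 and 17.60 under risperidone, 15.95, 16.92 and 18.98 under olanzapine and 14.86, 17.74 and 18.68 under vehicle. Its estimate was the lowest of the 10 under each drug, -0.59 (interval -1.51 to 0.32) for risperidone and -0.42 for olanzapine, and the groups overlapped. Serum amyloid P binds amyloid and microbial surfaces. Apcs medians were 13.91, 13.80 and 14.00 under risperidone, olanzapine and vehicle. Il1rn, which blocks the interleukin-1 receptor, had medians of 6.51, 7.34 and 6.26. Between the drugs themselves, 0 of 10 genes were called (0.0564% of all genes) and 0 of 10 had an unadjusted p under 0.05 (7.76% of all genes), with olanzapine minus risperidone running between -0.67 for Lcn2 and 0.82 for Orm2.

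**Figure D1:**
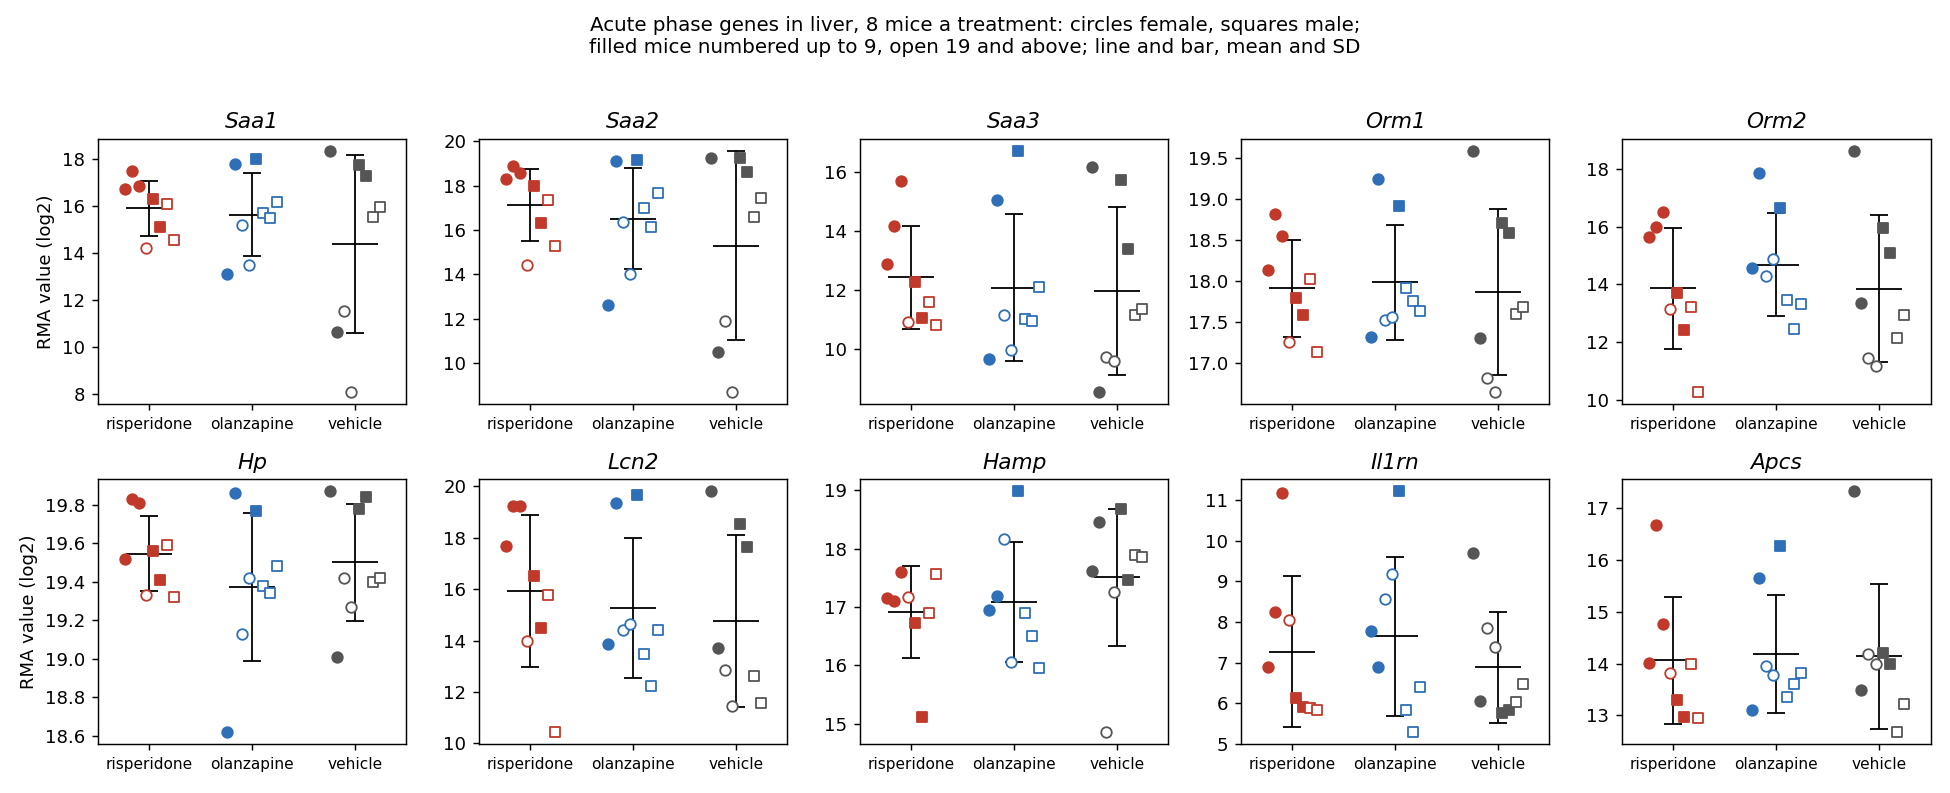
Log2 value of each of the 10 genes in liver, 1 panel a gene, under risperidone, olanzapine and vehicle. Each point is a mouse (circle female, square male, filled for mice numbered up to 9, open for 19 and above), and the line and bar are mean ± SD of 8 mice. The groups overlap in every panel, and the 4 lowest Saa1 and Saa2 values include 3 vehicle females.

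What the liver genes shared was variation from mouse to mouse. Over the 24 mice, all 45 pairs of the 10 genes had a positive Pearson r, with a median of 0.66. Of these, 32 pairs had an adjusted p under 0.05 over the 45 by permutation, and 30 did by Spearman's rho. Saa1 and Saa2 had r = 0.99 and rho = 0.99 (permutation adjusted p = 3e-05 for each), and r = 0.98 without the 2 mice farthest from the Saa1 median. Orm2 and Lcn2 had r = 0.92 and rho = 0.90 (r = 0.90 without the 2 farthest mice). Saa1 and Saa3 had r = 0.82 and rho = 0.98 (r = 0.88 without the 2 farthest mice). Pairs with Hamp had r of 0.12 to 0.41 and none passed. The genes of a pair were read from the same array, so array quality is shared between them.

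The median r over the 45 pairs was 0.83 in males and 0.72 in females, and 0.82 after the mean of each treatment and sex was taken out, when 31 pairs passed. It was 0.70 within the mice numbered up to 9 and 0.31 within those numbered 19 and above, where 30 of the 45 were positive. Saa1 and Saa2 kept r = 0.99 within both ranges. Orm2 and Lcn2 had 0.86 within the lower range and 0.78 within the upper.

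For Saa1, Saa2, Saa3, Orm1, Orm2, Hp and Lcn2, the mice with the highest values were largely the same. The vehicle female F1 had the highest mean rank over the 10 genes (2.0, with 1 the highest of 24), followed by the olanzapine male M9 (2.6), the olanzapine female F9 (4.8), the risperidone females F6 (5.4) and F5 (5.6) and the vehicle male M1 (6.2). All 3 groups are among them. For these 7 genes, the 7 highest mice were all numbered up to 9, the range of 12 of the 24 mice, while for Apcs it was 6 of 7 and for Hamp and Il1rn 4 of 7. The highest Hamp values were those of M9, M1, F2, F25, M19, M21 and F1. Lcn2 averaged 17.49 ± 2.30 in the lower range and 13.16 ± 1.57 in the upper (SD, n = 12 each), Orm2 15.53 ± 1.82 and 12.73 ± 1.31, and Saa3 13.45 ± 2.65 and 10.85 ± 0.75. What sets the ranges apart was not tested. Neutrophil markers were highest in some of the same livers. The mean over 9 neutrophil genes was 4.98 to 6.69 over the 24 livers. It was 6.69 in F6, 6.24 in M9, 5.87 in F1, 5.82 in F5, 5.78 in M1 and 5.40 in F9. It was also 5.81 in olanzapine F25 and 5.62 in olanzapine M25, whose mean ranks over the 10 genes were 13.0 and 15.6. S100a8, a calcium-binding protein of neutrophils, was 8.30 in F6, 7.07 in M9 and 6.89 in F1, and 4.11 to 5.92 in the other 21. The part of these markers in the shared variation was not tested.

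With the number range as a term, the difference of risperidone from vehicle was 1.23 for Saa1, 0.61 for Lcn2 and -0.34 for Orm2, and that of olanzapine was 1.53, 1.02 and 1.20. Within mice numbered up to 9, Lcn2 had a difference of -0.0013 and Saa1 of 0.60 under risperidone. Within mice numbered 19 and above, olanzapine minus vehicle was 2.14 for Saa1 (unadjusted p = 0.0144, adjusted p = 0.639 by limma), 2.22 for Saa2 and 1.78 for Lcn2. None of these passed the adjustment.

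**Figure D2:**
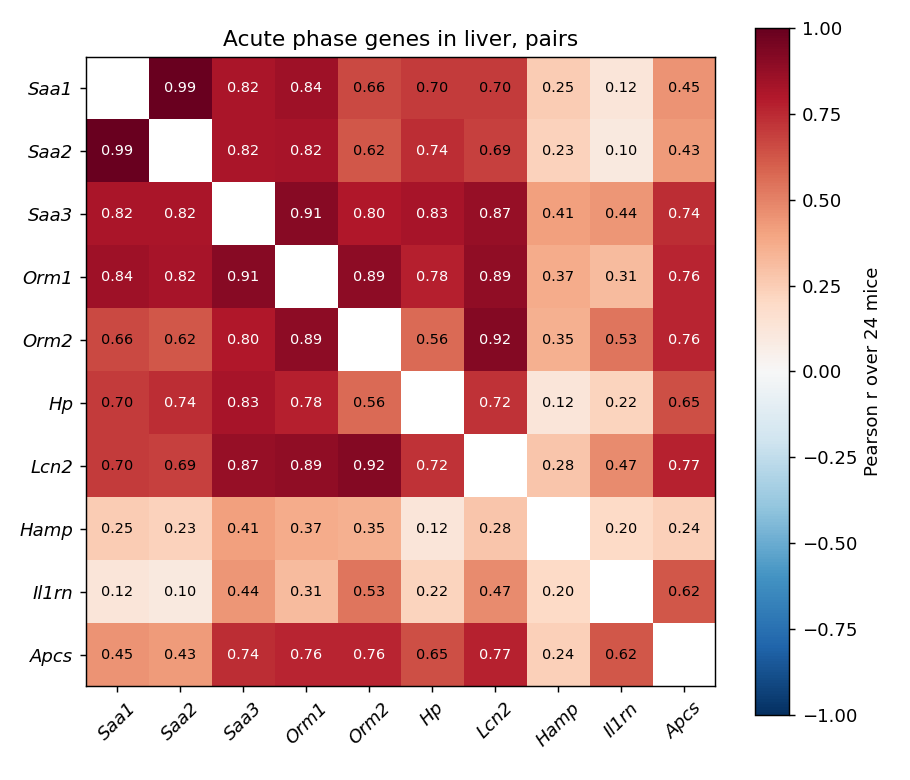
Pearson r over 24 mice for each pair of the 10 genes in liver, on a colour scale, with the value printed in each cell. The serum amyloid A, Orm and Lcn2 cells are among the darkest, and the cells of Hamp, at 0.12 to 0.41, and of Il1rn with Saa1 and Saa2 among the palest.

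Outside the 10 genes, the liver genes most like Saa1 over the 24 mice were Hpx (r = 0.83), which encodes the haem carrier hemopexin, Cyb561 (0.79), Lrg1 (0.73), Itih3 (0.73) and Serpina3n (0.72), several of them plasma proteins of the same response. Most like Lcn2, looked up after its values had been seen, were Itih4 (0.91), Itih3 (0.88), Serpina3n (0.88), Prg4 (0.86) and Il13ra1 (0.86). Most like Hamp, also looked up afterwards, was its near copy Hamp2 (0.91), whose probes may share signal with it. These are descriptions over mice of 3 treatments.

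Il1rn was lower in male than in female livers. It averaged 6.38 ± 1.55 in males and 8.15 ± 1.39 in females (SD, n = 12 each). The males had 6.13, 5.90, 5.89 and 5.84 under risperidone, 11.22, 5.84, 5.29 and 6.40 under olanzapine, and 5.75, 5.82, 6.02 and 6.47 under vehicle. The females had 6.89, 8.24, 11.19 and 8.04 under risperidone, 7.78, 6.90, 8.56 and 9.19 under olanzapine, and 9.70, 6.05, 7.85 and 7.39 under vehicle. Apart from the olanzapine male M9, which had the highest value of all 24, the males lay at or below 6.47 and all females but the vehicle female at 6.05 above it. Male minus female was -1.77 (standard error 0.53, interval -2.85 to -0.69, adjusted p = 0.0409 by limma), the only 1 of the 10 called, against 6.23% of all genes called in either direction and 3.83% called lower in males. It was -1.68 with the number range as a term (adjusted p = 0.0536), -2.25 within mice numbered 19 and above (adjusted p = 2.60e-05) and -0.98 within those numbered up to 9 (adjusted p = 0.788), and the adjusted p ran from 0.000243 to 0.0795 when 1 mouse was left out at a time. The call held without vehicle F2, F21 or M21, risperidone F4, or olanzapine F7, F9 or M9, and was lost without any of the other 17 mice. The mean over 9 measured genes of Kupffer cells and other macrophages was 8.76 to 8.97 in risperidone males and 9.38 to 10.33 in risperidone females, 8.77 to 8.99 and 9.68 to 10.32 under olanzapine, and 8.71 to 9.05 and 9.44 to 9.75 under vehicle. All 9 were called lower in males, with a median of -0.72, and their part in the Il1rn result was not tested. In tissue samples, fewer cells of a type and less RNA per cell cannot be told apart.

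Saa1 and Saa2 tended the other way, with male minus female of 1.70 (standard error 0.83, adjusted p = 0.288) and 2.18 (standard error 0.96, adjusted p = 0.218), neither of them called. Within mice numbered 19 and above both passed by limma, at 2.92 (adjusted p = 0.0188) and 3.52 (adjusted p = 0.00952). Within the lower range they were 1.11 and 1.58. The share of all genes called within a number range is not given, so these calls cannot be set against it. The drug effect in males minus that in females was negative for all 10 genes under risperidone, with a median of -2.46 against 0.00 over all genes, and 0 of 10 were called (0% of all genes). At an unadjusted p under 0.05 there were 2, Saa1 (-5.30, standard error 1.84, adjusted p = 0.946) and Saa2 (-6.21, adjusted p = 0.946), against 4.78% of all genes. In males alone risperidone minus vehicle was -1.13 for Saa1 and in females alone 4.17 (adjusted p = 0.888), where the vehicle females F2, F20 and F21 had the lowest values of all. Under olanzapine 0 of 10 were called (0% of all genes) and 0 of 10 had an unadjusted p under 0.05 (5.41% of all genes).

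The wider pathway was read from lists of genes. In liver under risperidone, Il1b, which encodes the cytokine interleukin-1 beta, was the only gene of these lists called. It had 7.32, 8.96 and 9.85 (lowest, median, highest) under risperidone, 6.60, 7.20 and 8.35 under olanzapine and 6.15, 7.06 and 7.84 under vehicle. It rose by 1.82 on the log2 scale under risperidone (standard error 0.28, adjusted p = 0.00261 by limma). That adjusted p stayed between 0.000234 and 0.0114 with any 1 mouse left out. Of the 8 risperidone mice, 7 lay above every vehicle mouse, and the share of all genes that separate so far was not counted. The lists were chosen with earlier results of these data known, so this call is not independent of them. None of the 10 acute phase genes was called in the same comparison. Of 27 other positive acute phase genes measured, 0 were called and the median was -0.02 under risperidone and -0.06 under olanzapine. Of 15 negative acute phase genes, whose proteins fall in the response, 0 were called with a median of 0.00 under each drug. Of 24 signals and regulators, 1 was called under risperidone (Il1b, median of the list 0.03) and 0 under olanzapine (median -0.15). Of 21 genes of the hepcidin and iron pathway, 0 were called, with medians of 0.06 and -0.04. Of 8 receptors and partners of these proteins, 0 were called, with medians of -0.06 and 0.00.

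Apart from Il1b, the genes nearest to the threshold in each list did not pass. Under olanzapine in liver they included Bmpr1a, a receptor for the bone morphogenetic proteins that drive hepcidin (-0.59, adjusted p = 0.288 by limma). From the same list came Smad7, an inhibitor of the hepcidin pathway (-0.55), and Hfe, an iron sensor (0.40). Signals and regulators gave Il1rap, the shared chain of interleukin-1 receptors (-0.57, adjusted p = 0.497 by limma). They also gave Il6st, the signalling chain of the interleukin-6 receptor (-0.52), and Nfkbiz, an NF-kB cofactor (-1.09). Under risperidone the hepcidin and iron pathway gave Hfe (0.37), Smad7 (-0.44) and Id1 (0.41). Negative acute phase genes gave Fetub (-0.29), Cyp3a11 (0.29) and Serpina6 (0.40), and the other positive ones Cfb (-0.20), C4b (-0.20) and Saa4 (0.48).

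**Figure D3:**
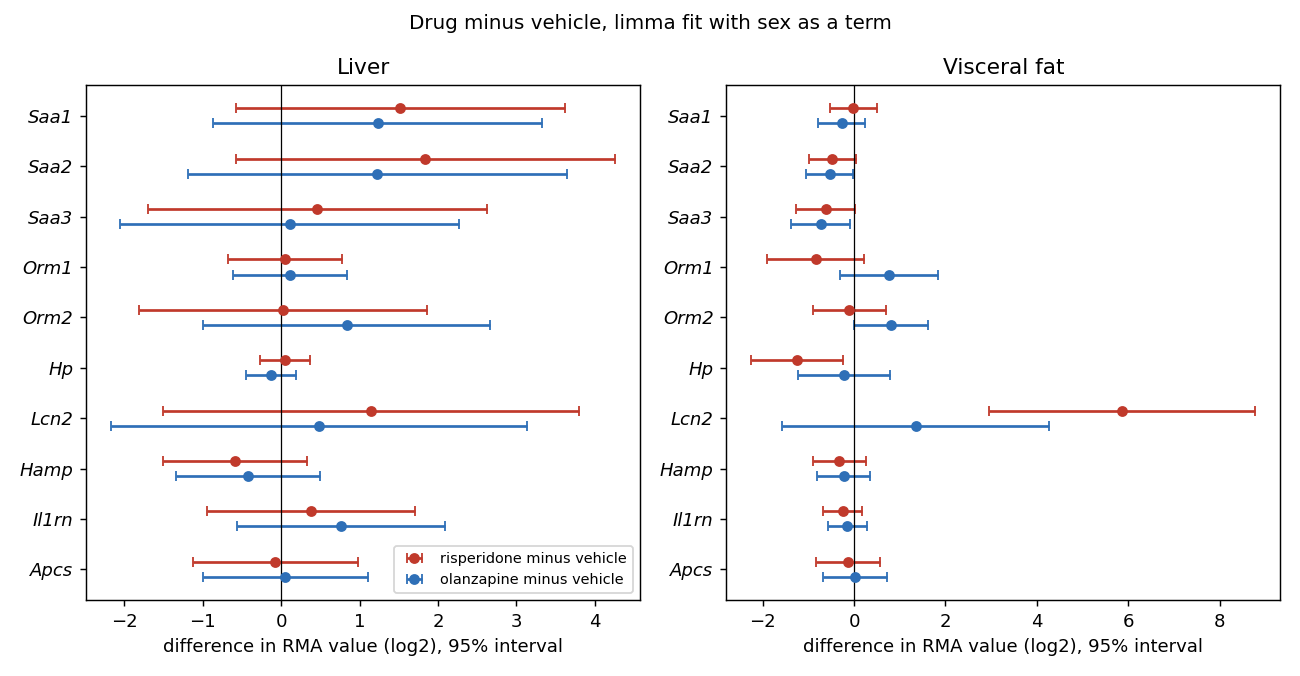
Log2 difference of each drug from vehicle with its 95% interval from limma, for each of the 10 genes in liver and in visceral fat (risperidone red, olanzapine blue, n = 8 mice a group). All liver intervals include 0, and the widest belong to Lcn2, at -1.50 to 3.80 under risperidone. In fat the Lcn2 interval under risperidone lies above 0, at 2.94 to 8.78, and those of Hp under risperidone and of Saa2, Saa3 and Orm2 under olanzapine also leave out 0, before any adjustment over genes.

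In gonadal visceral fat, no gene was called for either drug, while Lcn2 was high in risperidone males. Risperidone minus vehicle had 0 of 10 called by limma (0% of all genes) and 2 of 10 at an unadjusted p under 0.05 (9.03% of all genes), with a median of -0.28 against -0.04 over all genes. Olanzapine minus vehicle had 0 of 10 called (0% of all genes) and 3 of 10 at an unadjusted p under 0.05 (5.46% of all genes), with a median of -0.18 against -0.02. Olanzapine minus risperidone had 0 of 10 called (0% of all genes) and 4 of 10 at an unadjusted p under 0.05 (9.23% of all genes).

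Fat Lcn2 was 19.27, 18.86, 19.19 and 13.46 in the risperidone males, 11.92, 8.82, 6.30 and 7.26 in the olanzapine males and 6.44, 6.63, 7.29 and 6.20 in the vehicle males. In females it was 8.67, 7.54, 7.30 and 6.42 under risperidone, 6.28, 6.41, 10.78 and 6.85 under olanzapine and 7.71, 6.16, 7.00 and 6.37 under vehicle. All 4 risperidone males lay above every other mouse, and the risperidone females overlapped the vehicle females. The drug effect of risperidone in males minus that in females was 10.38 (standard error 1.67, adjusted p = 0.0141 by limma), called higher among 0.0461% of all genes.

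The 3 highest Lcn2 values came from arrays that carried markers of the epididymis, the duct that lies against the gonadal fat pad of males. In risperidone M4, M5 and M23 the epididymal genes Adam7, Defb20, Lcn5 and Lcn8 were at 19.08 to 19.50, named after their values were seen, and Adipoq, which encodes the fat cell hormone adiponectin, was at 14.13, 14.17 and 14.98. In the other risperidone male, M24, they were 11.68, 11.30, 10.54 and 14.13. In olanzapine M9 they were uneven, at 18.37, 9.84, 14.75 and 9.57. Among the other males, Lcn5 was also 13.17 in vehicle M19 and 11.26 in olanzapine M25. Adipoq was 15.72 in M9 and 17.57 to 18.67 in the remaining mice. The mean over the 8 measured genes of the gonadal tract was 9.68 to 13.49 in risperidone males and 7.00 to 8.16 in risperidone females, 7.20 to 10.55 and 6.59 to 7.53 under olanzapine, and 7.33 to 8.21 and 6.81 to 7.54 under vehicle. The part of these markers in the Lcn2 values was not tested. The genes most like Lcn2 over the 24 fat samples, looked up afterwards, were Lcn9, Abhd2 and Defb20 (r = 0.94 each). Without the 4 arrays, the interaction was 6.15 (standard error 1.45, unadjusted p = 0.000448, adjusted p = 1), and 0 of 10 genes passed. This left M24, which had a list mean of 9.68 itself, as the only 1 of the 4 risperidone males, assumed to vary like the other groups, so the loss of the call says nothing of its stability. Risperidone minus vehicle over both sexes was 5.86 (standard error 1.41, interval 2.94 to 8.78, unadjusted p = 0.000367, adjusted p = 0.445) with the 4 arrays and 2.23 (standard error 0.88, unadjusted p = 0.0195, adjusted p = 1) without them. In males alone it was 11.06 (standard error 1.33, adjusted p = 0.0131).

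**Figure D4:**
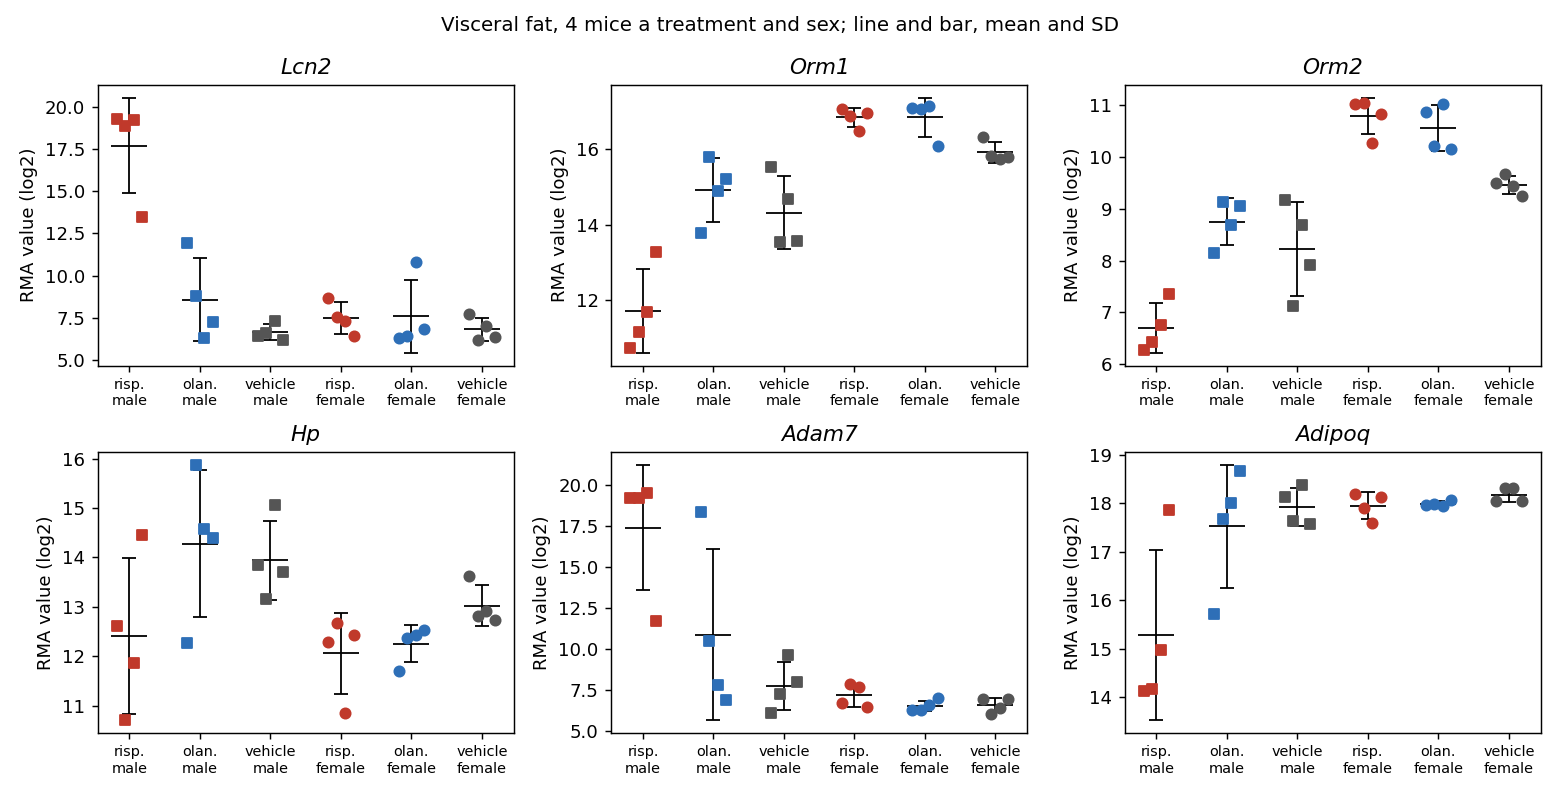
Log2 values in visceral fat of Lcn2, Orm1, Orm2 and Hp and of 2 marker genes, Adam7 of epididymis and Adipoq of fat cells, by treatment and sex, with mean ± SD of 4 mice. Risperidone males are high for Lcn2 and Adam7 and low for Orm1, Orm2 and Adipoq, while risperidone and olanzapine females lie above vehicle females for Orm2. The share of all genes that separate in this way was not counted.

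Orm1 and Orm2, which fat cells make, were lower in males than in females. Orm2 was 6.26, 6.42, 6.76 and 7.35 in risperidone males, 8.14, 9.13, 8.68 and 9.05 in olanzapine males and 9.18, 7.12, 8.68 and 7.91 in vehicle males. In females it was 11.02, 11.04, 10.28 and 10.84 under risperidone, 10.87, 10.22, 11.02 and 10.15 under olanzapine and 9.50, 9.67, 9.45 and 9.25 under vehicle. No male reached the level of any female of its own or another group. Male minus female was -2.39 for Orm2 (standard error 0.32, interval -3.05 to -1.73, adjusted p = 3.39e-05 by limma) and -2.88 for Orm1 (standard error 0.42, interval -3.76 to -2.01, adjusted p = 0.000111), the 2 of 10 called, against 4.60% of all genes in either direction and 3.74% lower in males. Without the 4 arrays they were -1.77 (adjusted p = 0.000564) and -1.93 (adjusted p = 0.000364), and within mice numbered 19 and above -1.93 (adjusted p = 0.0633) and -2.16 (adjusted p = 0.127). In the vehicle mice alone Orm2 averaged 8.22 ± 0.90 in males and 9.47 ± 0.17 in females, and Orm1 14.33 ± 0.96 and 15.92 ± 0.28 (SD, n = 4 each). Fat cell markers ran the same way. Male minus female was below 0 for all 9 measured, with a median of -1.13 against 0.00 over all genes, and 1 of the 9 was called, Retn, which encodes resistin (-1.28, adjusted p = 0.0369). The mean over the 9 was 11.82 to 14.76 in risperidone males and 14.27 to 15.37 in risperidone females, 13.68 to 15.59 and 14.63 to 15.60 under olanzapine, and 14.30 to 15.72 and 14.85 to 15.28 under vehicle. Of the 8 gonadal tract genes, 4 were called higher in males, and the part of both lists in the Orm1 and Orm2 difference was not tested.

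The drug effect on Orm2 also differed between the sexes under risperidone. In males minus females it was -2.85 (standard error 0.50, adjusted p = 0.0275 by limma), called lower among 0.00513% of all genes, and for Orm1 -3.53 (standard error 0.69, adjusted p = 0.0622), which did not pass. Over both directions, 2 of 10 genes were called, against 0.0513% of all genes, and under olanzapine 0 of 10 were called (0% of all genes) with 0 of 10 at an unadjusted p under 0.05 (2.54% of all genes). Without the 4 arrays the Orm2 interaction was -2.20 (adjusted p = 1), again with M24 as the only risperidone male. With any 1 mouse left out, the estimates ran from 9.86 to 11.79 for Lcn2 and from -3.22 to -2.53 for Orm2, while the calls moved with single mice: leaving out vehicle F1 or risperidone F23, M4, M5 or M23 left neither gene past the threshold, with adjusted p of 0.0547 to 0.0579 for Lcn2. Leaving out vehicle F2, F20, F21, M1 or M19 or risperidone F4 or F5 took Orm2 alone over it, and the adjusted p of Orm2 ran from 0.000363 to 0.102.

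In females, where no array carried epididymal markers, all 4 mice of each drug lay above all 4 vehicle mice for Orm2. Both drugs were set against the same 4 vehicle females, and the share of all genes that separate in this way was not counted. Risperidone minus vehicle in females alone was 1.33 (standard error 0.26, unadjusted p = 0.000129, adjusted p = 1.00 by limma) and olanzapine minus vehicle 1.10 (standard error 0.26, unadjusted p = 0.000721, adjusted p = 0.777), and neither passed over all genes. Orm1 in females was 17.06, 16.87, 16.48 and 16.95 under risperidone, 17.10, 17.07, 17.15 and 16.08 under olanzapine and 16.33, 15.81, 15.74 and 15.79 under vehicle. Risperidone females lay above every vehicle female, while 1 olanzapine female fell below the highest of them, with differences of 0.92 and 0.93. In males Orm1 was 10.75, 11.15, 11.70 and 13.27 under risperidone, 13.78, 15.79, 14.90 and 15.22 under olanzapine and 15.52, 13.54, 14.68 and 13.56 under vehicle. The mouse M24, which had the lowest epididymal markers of the 4 risperidone males, had the highest Orm1 and Orm2 of the 4.

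Fat Hp lay below the vehicle range in most mice of both drugs, under olanzapine in the females and M9 only, and passed for neither. It was 12.61, 10.71, 11.87 and 14.46 in risperidone males, 12.27, 15.87, 14.57 and 14.40 in olanzapine males and 13.84, 13.16, 15.05 and 13.70 in vehicle males. In females it was 12.29, 12.68, 10.85 and 12.42 under risperidone, 11.70, 12.36, 12.42 and 12.54 under olanzapine and 13.63, 12.81, 12.91 and 12.73 under vehicle. Of the 8 mice a group, 7 under risperidone and 5 under olanzapine lay below every vehicle mouse, and 1 under olanzapine lay above every one. In females all 4 of each drug lay below all 4 of vehicle. The 4 vehicle females were the same for both drugs, and the share of all genes separating so was not counted. Risperidone minus vehicle was -1.24 (standard error 0.49, unadjusted p = 0.0174, adjusted p = 0.478 by limma) with all arrays and -0.38 without the 4 that carried epididymal markers. Olanzapine minus vehicle was -0.21 (standard error 0.49, unadjusted p = 0.666, adjusted p = 0.918 by limma). Male minus female for Hp was 1.10 (adjusted p = 0.124) with all arrays and 1.85 (standard error 0.33, adjusted p = 0.00216) without those 4.

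None of the serum amyloid A genes passed in fat. Saa3 was 6.72, 7.87 and 8.56 (lowest, median, highest) under risperidone, 6.79, 7.78 and 8.51 under olanzapine and 7.18, 8.24 and 9.31 under vehicle, with olanzapine minus vehicle of -0.73 (unadjusted p = 0.0294, adjusted p = 0.783 by limma). Saa2 was 7.30, 7.96 and 8.84 under risperidone, 7.50, 7.95 and 8.82 under olanzapine and 7.67, 8.55 and 9.23 under vehicle, with -0.54 (unadjusted p = 0.0443, adjusted p = 0.783). The groups overlapped, and neither passed. Orm2, at 0.81 (unadjusted p = 0.0489), was the last of the 3. Saa1, Hamp, Il1rn and Apcs stayed within 4.33 to 8.93 in all 24 fat samples.

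The fat genes most like Saa3 over 24 mice were Mrc1 (r = 0.78), a macrophage receptor, Prg4 (0.78), Adgrd1 (0.77), Clec12a (0.76), a receptor of myeloid cells, and Olfr419 (0.75). Those most like Orm1, looked up afterwards, were Clybl (0.95) and Mgst2 (0.95). Of the 45 pairs in fat, 10 passed by Pearson and 8 by Spearman permutation tests, with a median r of 0.12. None of the listed genes of the wider response was called in fat under either drug. Medians under risperidone and olanzapine were -0.01 and 0.00 for the other positive acute phase genes, -0.11 and -0.06 for the negative ones, -0.18 and 0.01 for signals and regulators, -0.13 and 0.04 for the iron pathway and -0.18 and -0.10 for receptors. The largest that did not pass were Cd36 (-1.44), Cfb (-1.36), C4b (-1.30), Trf (-1.30) and Rbp4 (-1.29) under risperidone and Cp (0.80), Orm3 (0.80) and Scarb1 (0.69) under olanzapine. These medians and differences include the arrays that carried epididymal markers, most of them from risperidone males, and are not given without them. The median over the 9 fat cell genes was -1.19 under risperidone, and its part in these differences was not tested.

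No relation was shown between liver and fat levels of the same mouse. Over the 10 genes, r ran from -0.11 to 0.37 and 0 of 10 passed by either measure. The highest was Orm2, with r = 0.37 (permutation p = 0.0742, adjusted p = 0.519) and rho = 0.42 (permutation p = 0.044, adjusted p = 0.44). Its r was 0.36 without the 2 farthest mice, 0.19 in males, 0.25 in females and -0.25 after the mean of each treatment and sex was taken out. With those means taken out, r was highest for Lcn2, at 0.48 (permutation p = 0.017, adjusted p = 0.166), against 0.03 before. Il1rn followed at 0.44 (permutation p = 0.0333, adjusted p = 0.166), and neither passed. In liver and pancreas, r ran from -0.01 to 0.31 and 0 of 10 passed.

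In pancreas, none of the 10 genes was called for either drug, and the highest values of several genes were on arrays that carried hepatocyte genes. Risperidone minus vehicle had 0 of 10 called by limma (0% of all genes) and 1 at an unadjusted p under 0.05 (3.24% of all genes), olanzapine minus vehicle 0 called (0% of all genes) and 2 (8.24% of all genes), and olanzapine minus risperidone 0 called (0% of all genes) and 1 (4.02% of all genes). In the risperidone female F4, Orm1 was 18.86, Saa1 13.21, Saa2 13.40, Lcn2 14.59, Hp 14.44 and Orm2 13.63. The same array had a mean of 12.45 over 10 hepatocyte genes and Alb, which encodes albumin, at 19.91. In vehicle M3, where that mean was 9.54, Orm1 was 14.26 and Saa3 13.34, and in vehicle M19, where it was 10.21, Orm1 was 13.01, Hp 12.14 and Hamp 10.38. The next array in that mean was risperidone F5, at 8.82, where Orm1 was 13.71, Hp 12.42, Orm2 10.07 and Lcn2 9.28. These 4 arrays held the 4 highest values of Saa1, Saa2, Orm1, Orm2 and Hp, but not of Saa3, Lcn2 or Hamp. The lists ran from 6.55 to 12.45 under risperidone, from 6.76 to 8.51 under olanzapine and from 6.96 to 10.21 under vehicle, and their part in these values was not tested.

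Pancreatic Lcn2 lay above the vehicle range in most mice of both drugs and passed for neither. It was 7.68, 7.73, 6.38 and 5.92 in risperidone males and 14.59, 9.28, 6.89 and 5.76 in risperidone females, 6.53, 7.09, 6.19 and 9.27 in olanzapine males and 6.17, 6.40, 6.59 and 8.14 in olanzapine females, and 5.61, 6.18 and 6.47 (lowest, median, highest) in the 8 vehicle mice. Of the 8 mice a group, 5 under each drug lay above every vehicle mouse. All vehicle values, and the olanzapine values of 6.53 and 6.59 in that count, lay below the array medians of 6.69 to 6.90. Those 2 values were also close to the highest vehicle value of 6.47. The share of all genes with such a count was not taken. Risperidone minus vehicle was 1.92 (standard error 0.83, unadjusted p = 0.0293, adjusted p = 0.999) and olanzapine minus vehicle 0.93 (unadjusted p = 0.270). Without the 3 arrays they were 1.05 (standard error 0.54, unadjusted p = 0.0631) and 1.01 (unadjusted p = 0.0623), and neither passed. Without F5 as well they were 0.57 (unadjusted p = 0.245) and 0.96 (unadjusted p = 0.0376, adjusted p = 0.870). The olanzapine male M27, with Lcn2 at 9.27, had a hepatocyte mean of 6.76. Hp under olanzapine was 6.44, 7.41 and 8.67 (lowest, median, highest), against 7.82, 9.31 and 12.14 under vehicle, and its difference was -1.91 (unadjusted p = 0.0491) with the 3 arrays and -1.11 without them. Hp under risperidone had a difference of -0.73 with all arrays and of -1.61 without the 3 and F5 (unadjusted p = 0.00194, adjusted p = 1.00), and did not pass.

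Between the sexes in pancreas, 0 of 10 genes were called (0.108% of all genes), and 0 of 10 had an unadjusted p under 0.05 (4.25% of all genes). For the sex difference in the risperidone effect 0 of 10 were called (0% of all genes) and 5 of 10 had an unadjusted p under 0.05 (4.96% of all genes), led by Orm1 at -8.60 (standard error 2.18, adjusted p = 0.980), which was -4.67 without the 3 arrays and -2.80 without F5 as well. For olanzapine both counts were 0 of 10 (0% and 4.03% of all genes). The genes most like Lcn2 in pancreas were Cyp3a41a (r = 0.88), Cyp3a41b (0.87), Insig1 (0.84), Cyp2c69 (0.83) and Cyp27a1 (0.82), of which the Cyp genes encode enzymes abundant in liver.

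In striatum, Lcn2 alone of the 10 genes varied widely, with high values in 7 mice that were also high in liver. Its spread after treatment and sex was 2.81, ranked 2 of 19505 genes, while the other 9 genes had 0.207 to 0.411 and the median gene 0.289. Lcn2 was 11.77 in the risperidone female F6 and 9.95 in F5, 13.81 in the olanzapine male M9 and 6.59 in the olanzapine female F9, and 11.31, 10.09 and 8.54 in the vehicle mice F1, M1 and M3. The other 17 mice lay between 4.43 and 5.80. The high mice came from all 3 groups, with medians of 5.66 under risperidone, 5.45 under olanzapine and 5.57 under vehicle and differences from vehicle of -0.34 and -0.53 (standard error 1.21).

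The 7 mice were all numbered up to 9 and had liver Lcn2 of 17.64 to 19.81, against 10.45 to 17.70 in the other 17, of which 5 were numbered up to 9. In order of liver Lcn2 they held places 1 to 6 and 8, and the mouse at place 7, risperidone F4, had 17.70 in liver and 4.77 in striatum. The mice were split at a level of 6 in striatum, and no r over all 24 is given. The split was not wide at its edge. F9 had 6.59, against 5.80 in the highest of the 17 and 8.54 in M3, the next of the 7. The sets were made on the striatal level, which narrows its range within each, above all in the 17. So r within a set cannot decide whether the 2 levels go together over all 24. Within the 7, r was 0.43 (exact permutation p = 0.332, adjusted p = 0.357) and rho 0.36 (exact permutation p = 0.444). Within the other 17, r was 0.24 (permutation p = 0.357) and rho 0.28 (permutation p = 0.263, adjusted p = 0.395). Without the 2 mice farthest from the liver median r was 0.40 and 0.32. Within the 12 mice numbered 19 and above, a set not made on Lcn2 and with no mouse above 6 in striatum, r was 0.64 (permutation p = 0.0205, adjusted p = 0.0615 over the 3 sets) and rho 0.46 (permutation p = 0.138, adjusted p = 0.395). This r was 0.18 without the 2 mice farthest from the liver median, so it rests on them. The mice numbered up to 9 hold both sets, the 7 and 5 others, so no r is given for them either.

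Markers of other cells were both low and high among the 7 mice. The mean over genes of choroid plexus was 7.63 in M9, 8.17 in F6, 7.09 in F1, 7.59 in M1, 10.70 in F5, 9.10 in M3 and 7.56 in F9, with 11.10 in F4, the highest of the 24. The mean over neutrophil genes was 5.56 to 6.35 in all 24, with the highest in M9. Genes most like striatal Lcn2, looked up afterwards, were Tmem252 (r = 0.86), Krt84 (0.75), Olfr814 (0.74), Ly6c1 (0.73), a surface protein of endothelial cells, and Olfr231 (0.73).

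**Figure D5:**
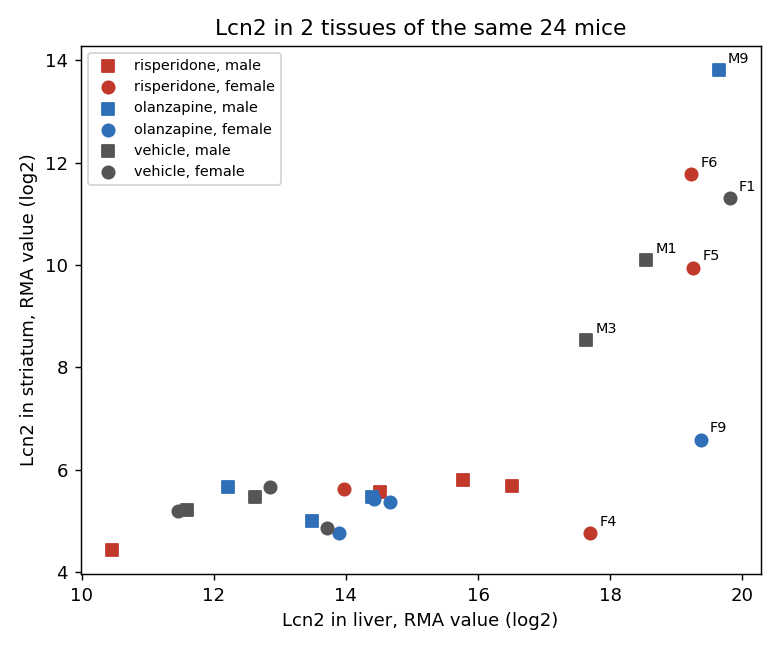
Log2 value of Lcn2 in striatum (vertical axis) against liver (horizontal axis) of the same mouse, 24 mice, by treatment. The 7 mice above 6 in striatum (M9, F6, F1, M1, F5, M3, F9) have liver values of 17.64 and above, and F4 has 17.70 in liver and 4.77 in striatum.

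No striatal gene of the 10 was called for risperidone (0% of all genes), with 0 of 10 at an unadjusted p under 0.05 (5.40% of all genes), for olanzapine (0% of all genes), with 1 of 10 (10.5% of all genes), or between the drugs by limma (4.86% of all genes), with 2 of 10 (19.1% of all genes). The gene under olanzapine was Apcs, at 4.38, 5.04 and 5.49 (lowest, median, highest) under olanzapine and 4.96, 5.27 and 6.11 under vehicle. Its difference was -0.35 (standard error 0.15, unadjusted p = 0.0272, adjusted p = 0.403 by limma). Every striatal value of Apcs, and of Orm2, lay below the array medians of 7.66 to 7.74. Male minus female had 0 of 10 called (0.390% of all genes) and 0 of 10 at an unadjusted p under 0.05 (7.01% of all genes). The sex difference in the drug effect had 0 of 10 called for either drug (0% of all genes), with 1 of 10 at an unadjusted p under 0.05 for risperidone (5.78% of all genes), Orm2 at -0.70, and 0 of 10 for olanzapine (6.01% of all genes).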

How the data were processed

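RNA from 96 samples was hybridised to Affymetrix mouse Clariom S arrays, with a different labelling kit for liver and striatum than for pancreas and fat. Per the submitters' processing notes, the authors made the deposited log2 values by robust multi-array averaging (RMA) in Affymetrix Expression Console 1.4, and the study's methods also name Babelomics 5.0. The sources used here do not state whether this was done on all arrays at once, nor the genome build, so tissues were analysed separately. Of 22206 transcript clusters, 19572 had 1 symbol and 2634 had none. Clusters of a gene were averaged, which left 19505 genes, 55 of them with several clusters. Values close to the highest of an array leave little room for differences, and the cause of this limit was not tested.

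Each tissue was fitted with limma 3.58.1 in R 4.3.3 (statmod 1.5.0) with treatment and sex as terms and Benjamini-Hochberg adjustment over all genes. The sex difference in a drug effect was tested with 6 group means. Correlations used 100000 permutations (two-sided, exact for 7 mice), so the smallest p they can give is 1e-05. Correlations and figures were made in Python 3.11.15 with scipy 1.17.1, matplotlib 3.10.9, numpy 2.4.6 and pandas 2.3.3. The fit was tested on simulated data. The number of arrays, 8 a group, limits the precision.

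The 10 genes and all lists were chosen with earlier results of these data known. Named were the 10 genes in every tissue, of each list the genes called in liver or fat or up to 3 a drug nearest to the threshold, and the 5 genes most like Saa1 in liver, Saa3 in fat and Lcn2 in pancreas. The other named genes were picked after their values were seen. Mice with different numbers were taken as separate animals. Alternatives were the scaling of arrays, the variance model, array weights, a filter on the lowest 25% of genes by mean value, single clusters, 1 sex or 1 drug at a time and leaving out each mouse. The number ranges, the number as a block and the arrays with epididymal or hepatocyte markers were examined after seeing the data.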

Additional observations from a re-analysis of the deposited data

Results flagged for a closer look

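In groups of 8 mice, a mouse was picked out where its gap to the nearest other exceeded 0.526 of the range of its group. Of 120 groups of gene, tissue and treatment, 13 had such a mouse (4 in liver, 0 in fat, 6 in pancreas and 3 in striatum), and chance gives about 1 in 20 groups.

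In liver, the risperidone female F6 had Il1rn of 11.19 with the next at 8.24, and the risperidone male M5 had Hamp of 15.11 with the next at 16.72. Under vehicle, F1 had Apcs of 17.32 with the next at 14.21, and F20 had Hamp of 14.86 with the next at 17.25. F6 and F1 were among the mice with the highest ranks over the 10 genes.

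In pancreas, the risperidone female F4 stood apart for Saa1 (13.21, next 8.61), Saa2 (13.40, next 9.95) and Lcn2 (14.59, next 9.28). Under vehicle, M3 stood apart for Saa3 (13.34, next 9.60), M19 for Hamp (10.38, next 8.89) and F21 for Il1rn (6.83, next 5.35). F4, M3 and M19 were the 3 arrays highest in hepatocyte markers, and the part of these markers was not tested.

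In striatum, the olanzapine male M9 had Lcn2 of 13.81 with the next at 6.59, the olanzapine male M25 had Hamp of 8.05 with the next at 8.39, and the vehicle female F2 had Hp of 4.99 with the next at 5.70.

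In fat, the risperidone effect differed between males and females by the limma test of the difference for Lcn2, at 10.38, and for Orm2, at -2.85 (males minus females). Both were no longer past the threshold without the 4 arrays that carried epididymal markers, at 6.15 and -2.20 (adjusted p = 1 each). That fit kept 1 risperidone male, assumed to vary like the other groups, so it says nothing of the stability of the calls, and the part of these markers was not tested.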

How the results depend on the processing

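No paired analysis of drug against vehicle was possible because the treatment groups share no mouse numbers. In each tissue 8 numbers were shared by a male and a female of a treatment, which the labels do not tie. Deviations from the group means correlated over -0.30 to 0.50 in these pairs, and 4 to 6 of the 16 mice were closest to their own number, so the numbers were not taken as pairs. With the number as a replicate block, added after seeing the data, 0 genes were called between the sexes in liver (Il1rn -1.55, adjusted p = 0.263), 2 in fat, and 3 for the sex difference in a drug effect in fat (Lcn2 12.28, Orm2 -3.66 and Orm1). In liver, 1 gene was called between males and females, against 0 with trended and robust variance, 0 with the number range as a term, 0 in mice numbered up to 9, 4 in those numbered 19 and above, and 0 to 1 without single mice. In fat, 0 genes were called for risperidone and 1 in males only, 2 between the sexes and 0 in mice numbered 19 and above, and 2 for the sex difference in a drug effect. That last count was 1 with only the 16 mice of the drug and vehicle, 1 with arrays centred on their medians, 5 in mice numbered up to 9, 0 in those numbered 19 and above, 0 without the arrays with epididymal markers, and 0 to 3 without single mice. In striatum, 0 genes were called between the drugs and 1 with array weights. The share of all genes called is given for the main fit only. Counts under the other settings cannot be set against it and describe the calls alone.

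The other sign changes were of estimates that did not pass. For liver risperidone minus vehicle they were, in males only, Saa1 -1.13, Saa2 -1.27, Saa3 -1.48, Orm1 -0.51, Orm2 -1.64, Hp -0.14, Lcn2 -0.79 and Il1rn -0.075, in mice numbered up to 9 Saa3 -0.17, Orm1 -0.38, Orm2 -1.03 and Lcn2 -0.0013, with the number range as a term Orm1 -0.0805 and Orm2 -0.34, with quantile normalization Orm1 -0.0209, in females only Hamp 0.22 and Apcs 0.07, in mice numbered 19 and above Hamp 0.18 and Apcs 0.17, and with array weights Apcs 0.0423. For liver olanzapine minus vehicle they were, in males only, Saa1 -0.29, Saa2 -0.50, Saa3 -0.23, Orm1 -0.0925, Orm2 -0.0775 and Lcn2 -0.16, in mice numbered up to 9 Orm1 -0.0777, and in females only Hamp 0.0475 and Apcs -0.63.

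For fat risperidone minus vehicle they were, in females only, Saa1 0.46, Orm1 0.92 and Orm2 1.33, with centred arrays Saa1 0.0187, in mice numbered up to 9 Saa1 0.14, without the arrays with epididymal markers Saa1 0.34, Orm1 0.43, Orm2 0.73, Hamp 0.0133 and Apcs 0.20, with array weights Orm2 0.42, and in mice numbered 19 and above Apcs 0.20. For fat olanzapine minus vehicle they were, in females only, Saa1 0.03 and Apcs -0.21, in males only Hp 0.34, in mice numbered 19 and above Hp 0.19, without the arrays with epididymal markers Hp 0.0622, with array weights Apcs -0.047, and in mice numbered up to 9 Apcs -0.11. The r between liver and fat became -0.154 for Saa1, -0.044 for Orm1 and -0.253 for Orm2 after group means were taken out, and -0.001 for Saa1, 0.121 for Saa2 and -0.068 for Orm1 without the 2 farthest mice.

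Without single mice, liver risperidone minus vehicle ran over -0.058 to 1.13 for Saa3, -0.13 to 0.31 for Orm1, -0.48 to 0.64 for Orm2, -0.0212 to 0.11 for Hp, -0.0724 to 0.67 for Il1rn and -0.40 to 0.34 for Apcs. Liver olanzapine minus vehicle ran over -0.56 to 0.77 for Saa3, -0.0771 to 0.38 for Orm1, -0.26 to 1.16 for Lcn2 and -0.32 to 0.47 for Apcs. Fat risperidone minus vehicle ran over -0.15 to 0.0745 for Saa1, -0.26 to 0.13 for Orm2 and -0.32 to 0.0207 for Apcs, and fat olanzapine minus vehicle over -0.52 to 0.0192 for Hp and -0.16 to 0.15 for Apcs. The cause of these changes was not tested. With 8 mice a group and the spread of these genes in liver, intervals of several log2 units limit what the drug comparisons can show.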
